A study of Mus musculus with 6 samples.

Results

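The transcripts described here come from genes whose introns carry small nucleolar RNAs (snoRNAs) and whose spliced exons encode no known protein. The list held 8 mouse genes, Gas5, Snhg1, Snhg3, Snhg4, Snhg5, Snhg6, Snhg8 and Snhg12, and a member was a row of the deposited gene table whose Ensembl identifier, without its version, belongs to one of these symbols. Rows were found for 5 of the 8, Gas5, Snhg3, Snhg5, Snhg6 and Snhg12, among 41128 genes. Snhg1, Snhg4 and Snhg8 had no matching row and were not analysed here.

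The study sequenced poly(A) RNA of long term repopulating hematopoietic stem cells, the bone marrow cells that can rebuild blood after transplantation. One group of C57BL mice was given YH250, a small molecule antagonist of p300/catenin, subcutaneously at 2 mg per kg. The control group was given DMSO, the solvent. Bone marrow of both groups was taken 16 h later, and cells were sorted as lineage negative, Sca1+, c-Kit+, CD41-, CD48- and CD150+. There were 3 libraries from YH250-treated mice and 3 from control mice, numbered 1 to 3 in each group. The labels give neither the age nor the sex of the mice, nor what a number stands for, nor whether a library came from 1 animal or from several, so the spread between libraries may be partly technical.

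A snoRNA is cut out of the intron of its host after splicing. Box C/D snoRNAs then guide the 2′-O-methylation of ribosomal RNA, and box H/ACA snoRNAs guide its pseudouridylation, while some of either kind help to cleave the ribosomal RNA precursor. The left-over spliced host RNA is exported, and many such hosts begin with a terminal oligopyrimidine tract, a run of C and T at the transcription start that couples ribosomal protein mRNAs to growth signals. Translation of their short reading frames exposes several hosts to nonsense-mediated decay (NMD), and Gas5 was named for its accumulation when cells stop growing.

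The stretches around the annotated starts are shown because start sequences played no part in the choice of the hosts and several hosts carry a TATA there. They are RefSeq promoter sequences on GRCm38.p6, each 80 bases on the gene's own strand, from 50 bases before the start to 30 after it. Capitals mark every TATA and the longest run of C and T that lies between 10 bases before and 20 bases after the start. Gas5 had entries for both of 2 starts, and Snhg3, Snhg5 and Snhg12 had 1 each. Snhg6 had no entry.
Gas5, chr1:161034551-161034630: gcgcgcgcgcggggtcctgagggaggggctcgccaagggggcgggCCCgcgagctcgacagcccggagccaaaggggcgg
Gas5, chr1:161035116-161035195: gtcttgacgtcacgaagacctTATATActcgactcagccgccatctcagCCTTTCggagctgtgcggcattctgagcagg
Snhg3, chr4:132353657-132353736: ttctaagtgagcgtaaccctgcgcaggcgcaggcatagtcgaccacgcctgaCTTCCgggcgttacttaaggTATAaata
Snhg5, chr9:88522868-88522947: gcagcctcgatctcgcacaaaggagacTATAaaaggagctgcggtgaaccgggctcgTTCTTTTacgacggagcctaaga
Snhg12, chr4:132308628-132308707: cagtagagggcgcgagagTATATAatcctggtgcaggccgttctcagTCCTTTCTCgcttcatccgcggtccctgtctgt

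A TATA, which reads the same on both strands, stood in 4 of these 5 stretches and in at least 1 stretch of each of the 4 hosts. It stood in 11.97% of the 32817 promoters in the RefSeq table when they were searched over the same 80 bases. The second Gas5 start, Snhg5 and Snhg12 held it before the start, first at positions -29, -23 and -32, whereas in Snhg3 it lay after the start, at position 23. The C and T runs were 6 bases at the second Gas5 start, 5 in Snhg3, 7 in Snhg5 and 9 in Snhg12, and 3 at the first Gas5 start. In the same order they began at positions -1, 3, 8, -3 and -5. Runs at least as long as 5, 6, 7 and 9 bases occurred in 54.6%, 36.3%, 24.6% and 11.6% of all promoters. The run of Snhg12 was thus the least common and that of Snhg3 was no longer than the median of all promoters, 5 bases. These matches are descriptions of letters and were searched for after the expression values had been seen. Since the stretches are shown because several hosts carry a TATA, its count beside that of all promoters is no test.

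The files hold 1 normalized signal per gene and library, which was read as RPM, reads scaled to a library total of 1000000, plus an offset of 1. A read was worth 0.0321 to 0.0455 RPM, and a level of 1 RPM stood for 21.96 to 31.19 reads. Over all genes the levels added up to between 699979 and 959240 RPM per library. Marker levels went with the replicate numbers, though not with these alone. The 8 stem cell markers summed to 1027, 1163 and 632 RPM in YH250 libraries 1, 2 and 3, and to 1260, 1218 and 702 RPM in control libraries 1, 2 and 3. Among them Ly6a, which encodes the sort marker Sca1, rose with the number instead. It stood at 122, 208 and 319 RPM in YH250 libraries and at 80.9, 155 and 241 RPM in control libraries. The 6 genes that the sort should exclude summed to 71.7, 120 and 326 RPM in YH250 libraries and to 60.9, 70.2 and 312 RPM in control libraries. Among these, Cd48, whose protein should be absent, stood at 13.1, 66.9 and 252 RPM in YH250 libraries and at 10.2, 31.5 and 258 RPM in control libraries. Itga2b, which encodes CD41, another protein that should be absent, went the other way, at 37.4, 26.3 and 7.13 RPM in YH250 libraries and at 43.7, 15.3 and 5.65 RPM in control libraries. Both libraries numbered 3 thus stood apart in these markers, and the host results are also given without them. YH250 2, which stays in those results, stood apart in another list. The 8 stroma and endothelium markers summed to 116, 412 and 99.7 RPM in YH250 libraries and to 115, 127 and 102 RPM in control libraries. Kit, which encodes the sort marker c-Kit, was lower in YH250 at each number. It stood at 218, 160 and 130 RPM in YH250 libraries and at 318, 265 and 213 RPM in control libraries. On the log2(RPM + 1) scale its difference YH250 minus control was -0.66 with SE 0.26 (limma, adjusted p = 0.999).

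Gas5 held by far the most reads of the 5 hosts. The file listed 9 snoRNA genes inside it, and those with a snoRNA name, Snord47, Snord78 and Snord80, were all of the C/D kind. It lies at chr1:161034422-161038539 on the plus strand (GENCODE M21, GRCm38) as a processed transcript. Gas5 stood at 1189, 1345 and 1165 RPM in YH250 libraries 1, 2 and 3, and at 983, 1203 and 1622 RPM in control libraries 1, 2 and 3. The YH250 values lay inside the range of the control values, which held both the lowest and the highest library. After rescaling every library to a common gene total of 1000000, the values were 1526, 1584 and 1244 RPM in YH250 libraries and 1404, 1591 and 1691 RPM in control libraries, with YH250 3 then the lowest. The means on the authors' scaling were 1233 ± 97.8 RPM in YH250 and 1269 ± 325 RPM in control (SD, n = 3 each). On the log2(RPM + 1) scale the difference YH250 minus control was -0.01 with SE 0.22, and its 95% interval ran from -0.52 to 0.49 (limma, adjusted p = 0.999).

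Snhg5, the host of the paired C/D snoRNAs Snord50a and Snord50b, is a processed transcript at chr9:88521050-88522929 on the minus strand. It stood at 104, 105 and 116 RPM in YH250 libraries and at 77.4, 102 and 152 RPM in control libraries. The 3 YH250 libraries were close together, and control 1 and control 3 lay below and above all of them. Its difference was 0.03 with SE 0.27 (95% interval -0.59 to 0.64).

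Snhg6, an annotated lincRNA that hosts the C/D snoRNA Snord87, is at chr1:9941959-9944118 on the minus strand. It stood at 43.2, 31.8 and 46.3 RPM in YH250 libraries and at 39.6, 42.8 and 62.7 RPM in control libraries. YH250 2 was the lowest library and control 3 the highest, and the groups overlapped. After rescaling they did not, at 55.5, 37.5 and 49.4 RPM in YH250 libraries and 56.57, 56.59 and 65.3 RPM in control libraries. Its difference of -0.24 was the farthest from 0 among the hosts, with SE 0.28 and a 95% interval of -0.86 to 0.38.

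Snhg3 carries the H/ACA snoRNAs Snora73a and Snora73b, also known as U17, which act in cleavage of the ribosomal RNA precursor. It is a processed transcript at chr4:132348014-132353686 on the minus strand. It stood at 36.6, 28.4 and 34.5 RPM in YH250 libraries and at 27.2, 33.8 and 46.8 RPM in control libraries. Control 1 was the lowest library and control 3 the highest on the authors' scaling. After rescaling YH250 2 was the lowest, at 33.4 RPM, against 38.8 RPM in the lowest control library. The difference was -0.08 with SE 0.28 (95% interval -0.72 to 0.55).

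Snhg12, an annotated lincRNA at chr4:132308623-132311024 on the plus strand, was the only mixed host, with the H/ACA snoRNAs Snora16a, Snora44 and Snora61 and the C/D snoRNA Snord99. It stood at 53.8, 53.4 and 36.9 RPM in YH250 libraries and at 39.2, 40.4 and 49.8 RPM in control libraries. YH250 1 and YH250 2 were the highest libraries and YH250 3 the lowest, so here the YH250 group enclosed the control group. The difference was 0.14 with SE 0.25 (95% interval -0.43 to 0.71).

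**Figure D1:**
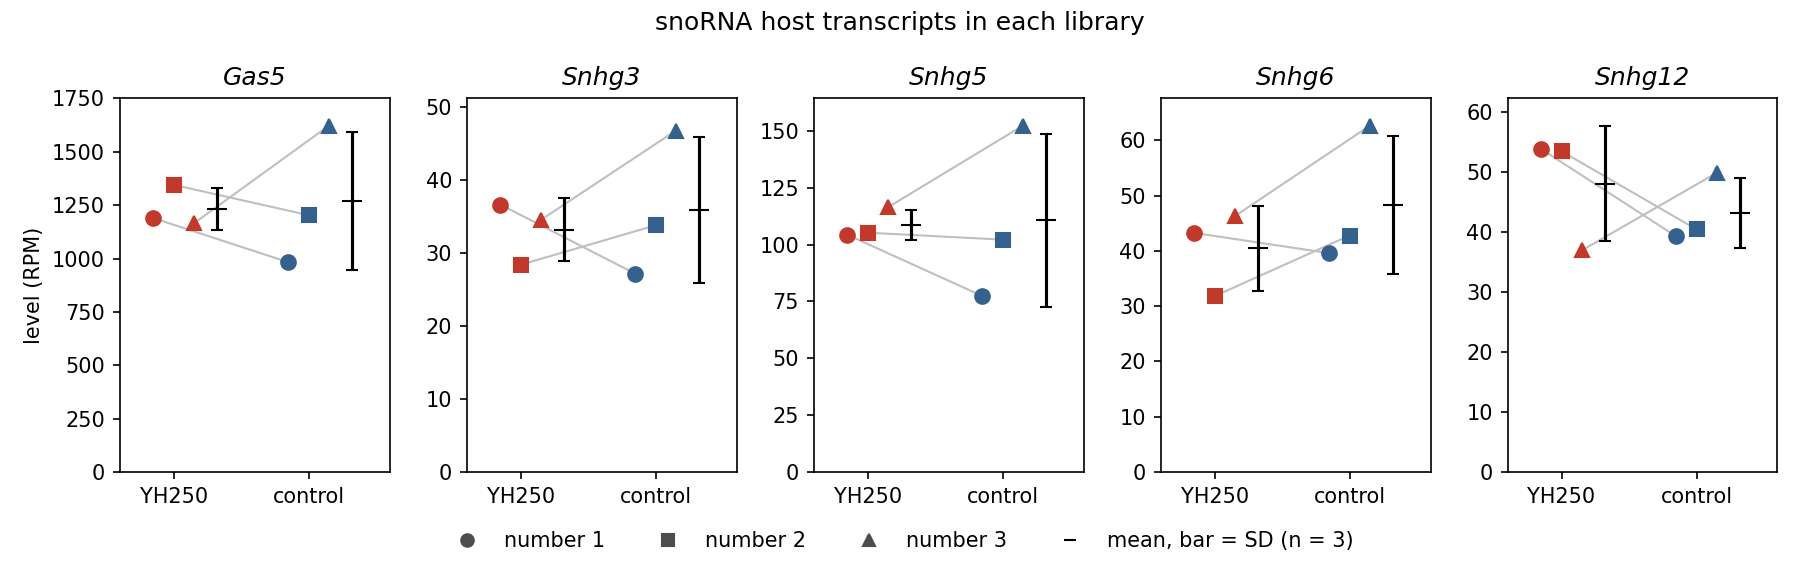
Level (RPM, linear axis from 0) of Gas5, Snhg3, Snhg5, Snhg6 and Snhg12 in the YH250 libraries (red) and the control libraries (blue), with the mean and SD of each group beside the points (n = 3) and grey lines joining libraries of the same number. Control 3 is the highest point in every panel except that of Snhg12, and no panel separates the groups on this scaling.

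No host passed the test between treatments, 0 of 5, against 0 of 13597 tested genes (0%). All 5 hosts passed the minimum mean of 1 RPM for testing, each had an adjusted p of 0.999, and 0 of the 5 had an unadjusted p under 0.05, as 231 of all genes (1.7%) did. The groups of 3 overlapped in all 5 hosts on the authors' scaling, and did not overlap in 7.48% of tested genes. After rescaling they did not overlap in 1 of 5 hosts, Snhg6, and in 7.19% of tested genes. The difference was above 0 in 2 of 5 hosts, Snhg5 and Snhg12, and in 51.7% of all genes. The lower ends of the 5 intervals lay at -0.43 to -0.86 and the upper ends at 0.38 to 0.71, so the p-values do not show that the groups were alike. Without both libraries numbered 3 the differences were 0.22 for Gas5, 0.09 for Snhg3, 0.23 for Snhg5, -0.15 for Snhg6 and 0.42 for Snhg12, and again none passed. With the replicate number as a block, 0 of 5 hosts had an unadjusted p under 0.05, against 7.44% of tested genes. In bulk RNA, fewer cells of a type and less RNA per cell cannot be told apart.

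**Figure D2:**
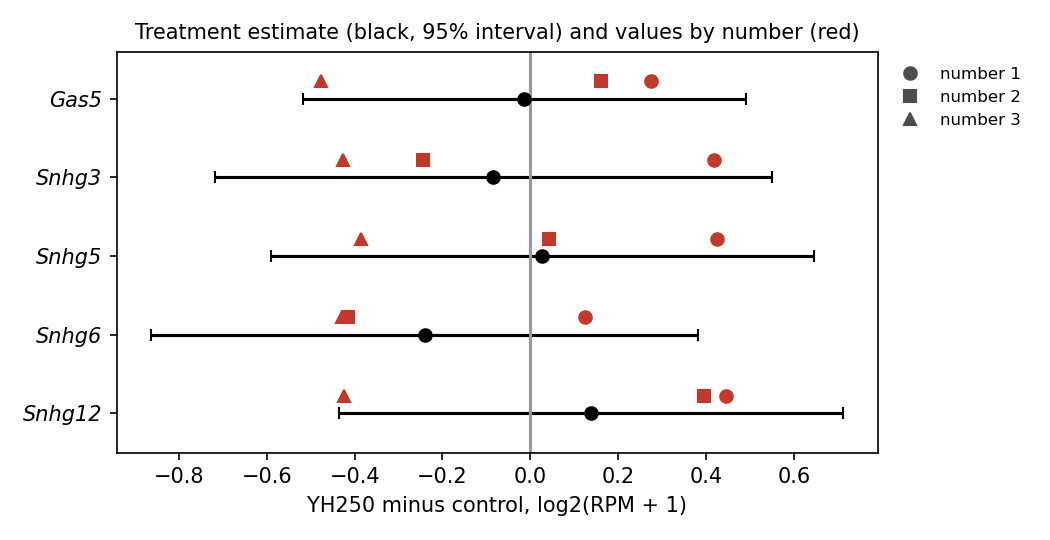
Difference YH250 minus control on the log2(RPM + 1) scale for each host, with limma's estimate and 95% interval in black (3 against 3 libraries) and the difference within each replicate number in red. Every interval includes 0, and in each row the value of number 3 is the lowest.

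The host rows rested on 25609 to 37093 reads per library for Gas5 and on 708 to 3345 reads for the other hosts. Counting alone would give a coefficient of variation of 0.625% for Gas5 and of 2.23% to 3.76% for the others in their shallowest library, for counting error only, since the reads carry no molecular identifiers. Over the 6 libraries the coefficients were 16.7% for Snhg12, 17.2% for Gas5, 20.3% for Snhg3, 22.4% for Snhg5 and 23.0% for Snhg6. After rescaling to a common gene total they were 18.3% for Snhg12, 10.6% for Gas5, 14.7% for Snhg3, 12.3% for Snhg5 and 17.5% for Snhg6, so Snhg12 was the least variable host on one scaling and the most variable on the other. The SD of log2 values was smaller in YH250 than in control for 4 of 5 hosts, all but Snhg12, and for 48.6% of tested genes. After rescaling it was smaller in YH250 for 1 of 5 hosts, Snhg5, and for 49.4% of tested genes.

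The highest library was mostly the same. Control 3 was the highest library for 4 of 5 hosts, all but Snhg12, and for 22.8% of tested genes, and it was also the highest for the same 4 after rescaling, and then for 11.8% of genes. On the authors' scaling control 1 was the lowest for 3 of 5, Gas5, Snhg3 and Snhg5, and for 21.8% of tested genes, and the same 3 had both extremes there, as 7.46% of genes did. After rescaling control 1 was the lowest for 1 of 5, Snhg5, and for 11.6% of genes. This comparison was made after the values had been seen. Averaged over the 5 hosts, the log2 level minus the gene's own mean was 0.05, -0.07 and -0.03 in YH250 libraries 1, 2 and 3, and -0.29, -0.06 and 0.40 in control libraries 1, 2 and 3.

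Read by replicate number, the difference between treatments changed sign. At number 1 it was 0.28 for Gas5, 0.42 for Snhg3, 0.43 for Snhg5, 0.12 for Snhg6 and 0.45 for Snhg12. At number 2 it was 0.16 for Gas5, -0.24 for Snhg3, 0.04 for Snhg5, -0.42 for Snhg6 and 0.39 for Snhg12. At number 3 it was -0.48 for Gas5, -0.43 for Snhg3, -0.38 for Snhg5, -0.43 for Snhg6 and -0.42 for Snhg12. All 5 hosts were thus above 0 at number 1, as 54.9% of tested genes were, and all 5 below 0 at number 3, as 55.6% were, and 28.3% of genes did both. At number 3 the 5 values lay within 0.1 of each other, at a level in YH250 3 of 0.718 to 0.764 of that in control 3, while at number 2 they fell on both sides of 0. A number holds 1 library of each treatment, so these differences have no replicate and no test.

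Several measures were set beside these differences. Summed over all genes, the libraries held 779144, 849188 and 936080 RPM in YH250 1, 2 and 3, and 699979, 756066 and 959240 RPM in control 1, 2 and 3. Cytosolic ribosomal protein genes, whose mRNAs carry terminal oligopyrimidine tracts, summed to 132566, 135861 and 129424 RPM in YH250 libraries and to 105704, 111767 and 147575 RPM in control libraries. Their median difference by number was 0.32, 0.29 and -0.24, beside 0.42, 0.04 and -0.43 for the hosts and 0.06, 0.06 and -0.06 for all tested genes. When each library was rescaled so that its genes summed to 1000000 RPM, 4 of 5 hosts stayed above 0 at number 1 (Snhg6 was at -0.03), and 5 of 5 below 0 at number 3. The medians of the hosts were then 0.27, -0.12 and -0.39. The part of the library totals and of the ribosomal protein genes in the host values was not tested.

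**Figure D3:**
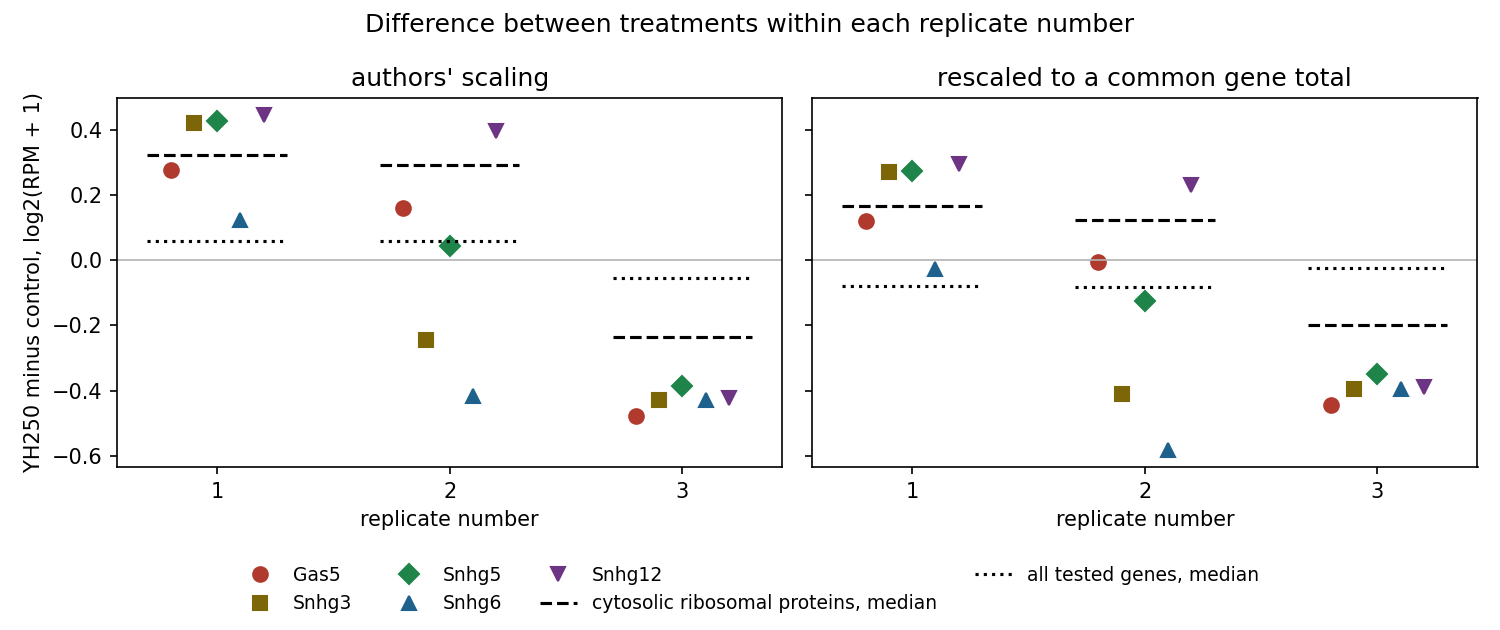
Difference YH250 minus control on the log2(RPM + 1) scale at replicate numbers 1, 2 and 3, on the authors' scaling (left) and after rescaling every library to a common gene total (right), with 1 library per treatment at each number. Points are the 5 hosts, and dashed and dotted lines are the medians of 79 cytosolic ribosomal protein genes and of 13597 tested genes. All hosts lie below 0 at number 3 in both panels, and at number 1 all lie above 0 on the left and all but Snhg6 on the right.

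Together the 5 hosts took 0.183%, 0.184% and 0.149% of gene reads in YH250 libraries 1, 2 and 3, and 0.167%, 0.188% and 0.202% in control libraries. YH250 3 was the lowest and control 3 the highest on this measure, and the groups overlapped. Gas5 made up 83.3%, 86.0% and 83.3% of the host reads in YH250 libraries and 84.3%, 84.6% and 83.9% in control libraries, so its share moved by under 3 percentage points between any libraries. The smaller shares ran from 1.82% to 2.57% for Snhg3, 6.64% to 8.32% for Snhg5, 2.03% to 3.40% for Snhg6 and 2.58% to 3.77% for Snhg12.

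Levels of different hosts can be compared only per length. By the length covered by all annotated exons, Gas5 reached 327.9 ± 26.02 RPM per kb in YH250 and 338 ± 86.4 in control (SD, n = 3 each). Snhg5 followed with 62.8 ± 3.88 RPM per kb in YH250 and 63.9 ± 22.1 in control. Snhg6 stood at 35.3 ± 6.65 RPM per kb in YH250 and 42.2 ± 10.9 in control. Snhg3 was close to Snhg6, with 33.7 ± 4.35 RPM per kb in YH250 and 36.4 ± 10.1 in control, and these neighbours did not differ beyond their spread. Snhg12 was last, with 19.99 ± 4.01 RPM per kb in YH250 and 18.0 ± 2.42 in control. By median transcript length in place of all exons, Gas5 and Snhg5 kept the first places and Snhg12 the last, while Snhg3 and Snhg6 changed places in YH250, at 76.0 and 72.4 RPM per kb. The gene models are those of GENCODE M21 and may differ from the annotation behind the file.

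The snoRNAs themselves left almost no reads, in a library made from poly(A) RNA. Of 18 snoRNA rows inside the 5 hosts, 15 stayed under 0.001 RPM in every library, including all 9 in Gas5 and both in Snhg5. Those in Gas5 were at that level although their host held at least 25609 reads in each library. The 2 rows with reads in every library are shown as GENCODE M21 transcripts. In Snora73b capitals mark the ACA box, 3 bases from the end. In Snord87 they mark TGATGA and CTGA, the letters of the C and D boxes.
Snora73b, chr4:132352322-132352526: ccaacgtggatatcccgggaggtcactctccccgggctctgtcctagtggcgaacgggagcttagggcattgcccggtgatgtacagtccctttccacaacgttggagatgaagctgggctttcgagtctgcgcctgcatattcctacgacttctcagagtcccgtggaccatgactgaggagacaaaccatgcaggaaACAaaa
Snord87, chr1:9942463-9942549: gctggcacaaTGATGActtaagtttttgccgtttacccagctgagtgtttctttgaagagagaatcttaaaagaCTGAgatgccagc

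Snora73b stood at 0.908, 2.15 and 1.496 RPM in YH250 libraries and at 0.902, 2.18 and 2.21 RPM in control libraries, the highest of any of the 18. Snord87 stood at 0.353, 0.280 and 0.375 RPM in YH250 libraries and at 0.460, 0.221 and 0.729 RPM in control libraries, or 6 to 16 reads. The groups overlapped for both. The third row with any read, Snora16a in Snhg12, held 3 reads in YH250 1 and 1 read in control 3. Whether the file's counting could give a read inside an intron to the snoRNA or to its host is not stated in the sources used here.

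Overlapping genes limit what a host row can mean. Nothing states that the counting used strand, and strand would not separate genes that share it. Rcc1, which encodes the nucleotide exchange factor of Ran, lies on the same strand as Snhg3 and overlaps it by 5592 bases. Rcc1 stood at 17.0, 50.8 and 20.8 RPM in YH250 libraries and at 12.1, 21.6 and 14.5 RPM in control libraries, with a difference of 0.72 (SE 0.44, limma adjusted p = 0.999). YH250 2 was the highest library for Rcc1 and the second lowest for Snhg3. Gm17300, a lincRNA on the opposite strand that was added after the values had been seen, lies wholly inside Snhg3 over 1611 bases. It stood at 6.50, 3.04 and 2.95 RPM in YH250 libraries and at 5.71, 7.39 and 8.42 RPM in control libraries, groups that overlapped, with a difference of -0.72 (SE 0.45). Zbtb37, a zinc finger gene on the opposite strand, overlaps Gas5 by 428 bases and stood at 0.480 to 4.39 RPM in YH250 and 2.37 to 6.33 RPM in control. Mcmdc2, also on the opposite strand, overlaps Snhg6 by 127 bases and stood at 2.77 to 7.38 RPM in YH250 and 3.18 to 5.02 RPM in control. Trnau1ap, which acts in selenocysteine incorporation, ends 738 bases from Snhg12 on the opposite strand, and its difference was 0.06 (SE 0.26). None of these neighbours passed the test.

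Between replicate numbers, with treatment as a second term and 2 libraries per number, none of the 5 hosts passed in any of the 3 contrasts. For number 3 minus number 1 the background was 1164 of 13597 genes (8.56%), 761 higher and 403 lower, for number 2 minus number 1 it was 27 genes (0.199%), and for number 3 minus number 2 it was 858 genes (6.31%), 499 higher and 359 lower. After rescaling to a common gene total the splits were 466 higher and 892 lower for number 3 minus number 1, and 343 higher and 717 lower for number 3 minus number 2. With quantile normalization they were 642 higher and 661 lower, and 438 higher and 524 lower. Single libraries moved these counts, between 414 without control 3 and 2944 without YH250 2 for number 3 minus number 1, between 43 without control 1 and 1743 without control 2 for number 2 minus number 1, and between 252 without control 3 and 3122 without control 2 for number 3 minus number 2.

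For number 3 minus number 1 the difference was above 0 in 4 of 5 hosts and in 52.9% of genes. It was 0.35 for Gas5, 0.34 for Snhg3, 0.56 for Snhg5, 0.37 for Snhg6 and -0.10 for Snhg12, with SEs of 0.22 to 0.29. Snhg5 alone had a 95% interval that excluded 0 (0.04 to 1.09, limma adjusted p = 0.178), and 24.4% of all genes had an unadjusted p under 0.05 in this contrast. Gas5 passed only when YH250 3 was left out (difference 0.69, adjusted p = 0.00481), which leaves control 3 as the single library numbered 3. After rescaling to a common gene total Gas5 and Snhg3 each stood at -0.01, Snhg5 at 0.21, Snhg6 at 0.02 and Snhg12 at -0.45. Markers of other cells differed in the same contrast, in which 8.56% of all tested genes passed. Of the tested markers, 8 of 8 for B cells, 5 of 10 for T and NK cells and 2 of 8 for myeloid cells passed as higher. For erythroid cells 1 of 6 passed as lower, and for stroma and endothelium 1 of 7. Of 8 stem cell markers 6 passed as lower and 1, Ly6a, as higher. The B cell markers summed to 172, 298 and 834 RPM in YH250 libraries 1, 2 and 3 and to 64.2, 278 and 684 RPM in control libraries, and the T and NK cell markers to 159, 219 and 542 RPM in YH250 libraries and 74.6, 136 and 551 RPM in control libraries. No marker of either list was at 0 in every library. Between treatments, 8 of 8 tested B cell markers were above 0, with a median of 0.63. So were 8 of 10 T and NK cell markers, with a median of 1.06, and 3 of 8 stem cell markers, with a median of -0.18. Among all tested genes 51.7% were above 0, and none of these markers passed. The part of the markers in the host levels was not tested.

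The machinery around the hosts gave no call between treatments. Of 8 core proteins of snoRNA particles, 7 were above 0 and 0 passed, with a median of 0.10. The 2 farthest from 0 were Nhp2, a core protein of H/ACA particles, at 0.20 (SE 0.31), and Fbl, the methyltransferase of C/D particles, at 0.16 (SE 0.28). Of 12 assembly and processing factors, 6 were above 0 and 0 passed, with a median of 0.01. Shq1, an H/ACA assembly chaperone, stood at 21.0, 34.4 and 14.3 RPM in YH250 libraries and at 15.5, 6.70 and 5.60 RPM in control libraries, and its difference of 1.28 (SE 0.47) had an adjusted p of 0.999. Ruvbl2, an ATPase of the assembly complex, was at 0.51 (SE 0.23). Of 22 NMD factors, 13 were above 0 and 0 passed, with a median of 0.05. The farthest were Ncbp1, the large subunit of the nuclear cap-binding complex, at -0.68 (SE 0.34), and Smg8, a regulator of the kinase Smg1, at 0.63 (SE 0.57). Under quantile normalization the medians of these 3 lists lay below 0, at -0.0041 for the core proteins, -0.043 for the assembly factors and -0.011 for the NMD factors.

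Protein-coding snoRNA hosts and genes listed for pyrimidine tracts were mostly above 0 on the authors' scaling, by small amounts. Of 37 coding hosts 29 were above 0, with a median of 0.11, which was -0.04 under quantile normalization. Hspa8, a constitutive heat shock protein gene that hosts Snord14 RNAs, stood at 2223, 2715 and 2703 RPM in YH250 libraries and at 1621, 1924 and 1737 RPM in control libraries. These groups did not overlap, and the difference of 0.53 (SE 0.18) had an unadjusted p of 0.0161 and an adjusted p of 0.999. Of 79 cytosolic ribosomal protein genes 77 were above 0, with a median of 0.14, which was -0.03 under quantile normalization. Rpl3, which is both a ribosomal protein gene and a coding host, was at 0.34 (SE 0.19), and Rps2 at 0.30 (SE 0.18). A further list for such tracts held 15 genes, among them translation factors but also Nap1l1 and Npm1. Of these 15, 10 were above 0, with a median of 0.12, which was 0.03 under quantile normalization and after rescaling. Eif3h, a subunit of an initiation factor, was at 0.32 (SE 0.19), and Eef2, the elongation factor that moves the ribosome along, at 0.28 (SE 0.23). Eef2 is also in the list of coding hosts. Without control 1 the medians were 0.01 for the coding hosts, 0.03 for the ribosomal protein genes and 0.0018 for the further list with tracts. The hosts' own median was -0.01, and that of all tested genes 0.02.

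Other genes listed as noncoding hosts did not pass either. Of 9 tested members of a list of further Snhg genes, Zfas1 and Epb41l4aos, 2 were above 0, with a median of -0.12. Snhg20 stood at 34.9, 39.0 and 19.7 RPM in YH250 libraries and at 55.3, 48.3 and 35.5 RPM in control libraries, with a difference of -0.59 (SE 0.32, limma adjusted p = 0.999). Snhg11 stood at 2.53, 2.83 and 2.34 RPM in YH250 libraries and at 3.87, 3.49 and 3.56 RPM in control libraries, and these groups did not overlap. A wider set, the noncoding genes of the annotation that contain a snoRNA gene on their own strand, was drawn up after the data had been seen. Snhg20 and Snhg11 are not in that set. Besides the 5 hosts the set held 19 tested genes, of which 8 were above 0 at number 1, 14 below 0 at number 3 and 7 both. Among all tested genes the shares were 54.9%, 55.6% and 28.3%. Among abundant ones, Zfas1, a host of Snord12 RNAs, stood at 182, 193 and 181 RPM in YH250 libraries and at 155, 188 and 237 RPM in control libraries. Snhg14 went the other way at number 3. It stood at 41.4, 54.1 and 47.0 RPM in YH250 libraries and at 42.2, 40.9 and 29.5 RPM in control libraries, with control 3 the lowest.

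Between numbers, 1 of the 154 tested genes of these lists passed in number 3 minus number 1, beside 8.56% of all tested genes, and 1 of 154 in number 3 minus number 2, beside 6.31%. Gar1, a core protein of H/ACA particles, stood at 58.3, 50.9 and 27.7 RPM in YH250 libraries 1, 2 and 3 and at 66.2, 41.4 and 23.9 RPM in control libraries, and fell by 1.24 at number 3 against number 1 (limma, adjusted p = 0.0170). That call was lost without control 1 (adjusted p = 0.240), control 3 (0.172) or YH250 3 (0.0705). Nap1l1, a histone chaperone gene with a pyrimidine tract, stood at 370, 259 and 517 RPM in YH250 libraries and at 309, 289 and 588 RPM in control libraries, and rose by 1.01 at number 3 against number 2 (limma, adjusted p = 0.0184). That call was lost without YH250 2 (adjusted p = 0.0972).

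The 5 genes whose profile over the 6 libraries lay nearest to the mean profile of the hosts were Smim11, 2410006H16Rik, Nip7, Ccnq and Lrrc58. Likeness was the root-mean-square distance between centred log2(RPM + 1) values, 0.0437 for Smim11, 0.0561 for 2410006H16Rik, 0.0589 for Nip7, 0.0678 for Ccnq and 0.0683 for Lrrc58, against a median of 0.378 over the 8948 genes that averaged 10 RPM or more. The hosts' own distances were 0.0855 for Snhg3, 0.0950 for Gas5, 0.110 for Snhg5, 0.178 for Snhg6 and 0.218 for Snhg12, with each host part of the mean it was set against. 2410006H16Rik is itself an annotated noncoding host, of Snord49a, Snord49b and Snord65. It stood at 406, 362 and 355 RPM in YH250 libraries and at 329, 368 and 476 RPM in control libraries, with the same extremes as Gas5, Snhg3 and Snhg5 on the authors' scaling. Nip7, a factor of ribosome assembly, stood at 78.2, 67.7 and 69.5 RPM in YH250 libraries and at 63.0, 75.9 and 95.5 RPM in control libraries. All libraries share their depth and scaling between genes, so this likeness is a description.

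**Figure D4:**
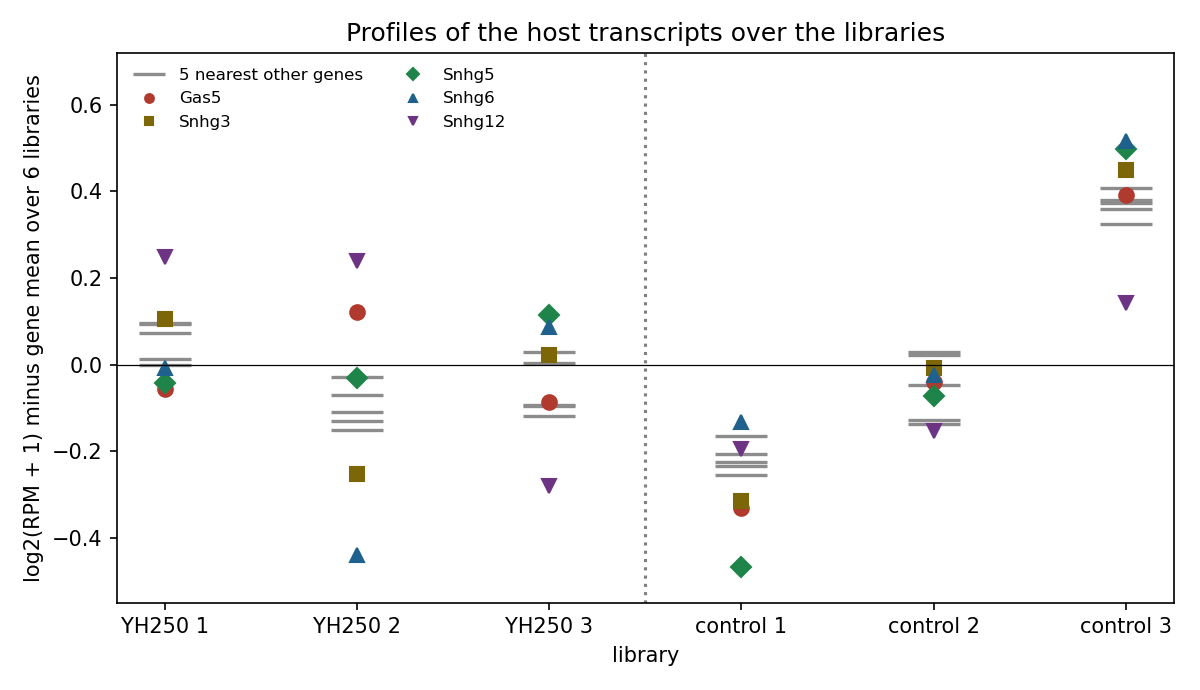
Log2(RPM + 1) level minus the gene's mean over 6 libraries for the 5 hosts (coloured points) and the 5 nearest other genes (grey dashes), with YH250 libraries left of the dotted line and control libraries right of it. On the authors' scaling control 3 holds the highest values of all hosts but Snhg12, and control 1 the lowest of Gas5, Snhg3 and Snhg5.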

How the data were processed

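The authors deposited 1 table of normalized signal per gene and library, 41128 Ensembl genes in 6 libraries, with no unit stated. Amplified cDNA from a low-input kit was sequenced as 50 base single-end reads, per the labels' protocols. CASAVA 1.8.2, TopHat2 2.0.8, Partek and the build mm10 are named in the submitters' processing notes. The counting method and its annotation are not given in the sources used here. In every column the lowest value was 1, so 1 was subtracted to give RPM, and the worth of 1 read was the commonest small value. Of values up to 20 reads, 61.0% to 68.5% lay within 0.1 of a whole read, so no count model was used. Symbols matched 40254 genes.

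The 13597 genes that averaged 1 RPM or more were tested on log2(RPM + 1) with limma 3.58.1 (R 4.3.3), using lmFit and a robust eBayes with trend. P-values were adjusted by Benjamini-Hochberg across these genes, with 0.05 as the threshold. The pseudocount of 1 understates changes of low genes. Only the main test between treatments was tried on simulated data, with changes larger than those of the hosts. Replicate numbers were checked as pairs by correlating deviations from group means. Same-numbered libraries gave 0.55, 0.26 and 0.70, all above the limit of 0.1, although YH250 1 with control 2 (0.144) and YH250 2 with control 1 (0.109) also passed it. Numbers were therefore treated as pairs in the differences by number and in the replicate block. The main test between treatments had no term for the number, so its SEs, intervals and p-values are unpaired. The pairing comes from these values, since no label explains the numbers.

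Named genes were all listed hosts, coding genes within 2 kb of a host, snoRNA genes inside a host, the 2 genes of each list farthest from 0 and any that passed, and the 5 nearest profiles. Zfas1 and Snhg14 are named outside this rule. Snhg16 was matched by the older symbol 1810032O08Rik after the data had been seen. The library patterns after rescaling were also added then. Members and lists were chosen with earlier results of these data known. Alternatives were the pseudocount, the minimum, the scaling, library weights, the replicate block and left-out libraries.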

Additional observations from a re-analysis of the deposited data

How the results depend on the processing

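For the 5 hosts, 0 of 90 alternative fits between treatments gave a call (smallest adjusted p 0.744), and the number of genes called stayed at 0 in all of them. Directions near 0 did turn. Without 1 library, list medians ran from 0.01 to 0.21 for coding hosts, 0.03 to 0.28 for ribosomal protein genes and 0.0018 to 0.21 for the further list with pyrimidine tracts. Without 1 library the differences ran from -0.18 to 0.18 for Gas5, -0.26 to 0.12 for Snhg3, -0.20 to 0.28 for Snhg5, -0.37 to -0.04 for Snhg6 and 0.05 to 0.31 for Snhg12, and the hosts' median ran from -0.20 to 0.18. Gas5 was at 0.0088 and Snhg3 at 0.050 with array weights, and at 0.22 and 0.087 without both libraries numbered 3. Snhg5 was at -0.027 under quantile normalization, -0.067 after rescaling and -0.17 without both libraries numbered 1, where Snhg12 was at -0.014. Of the other named genes, Fbl turned to -0.044 without both libraries numbered 2 and Smg8, which ran from -0.0043 to 0.96 without 1 library, turned without YH250 2. For number 3 minus number 1, Gas5 turned to -0.064 (quantile) and -0.013 (rescaled) and Snhg3 to -0.0096 (rescaled). For number 2 minus number 1, Snhg12 turned to -0.078 (quantile) and -0.0996 (rescaled), and for number 3 minus number 2 Gas5 turned to -0.13 with either. Without 1 library, the ranges for number 3 minus number 1 were -0.0014 to 0.69 for Gas5, -0.037 to 0.72 for Snhg3 and -0.52 to 0.32 for Snhg12. For number 2 minus number 1 they were -0.21 to 0.25 for Snhg12, -0.40 to 0.35 for Snhg3, -0.094 to 0.50 for Snhg5 and -0.43 to 0.11 for Snhg6. For number 3 minus number 2 they were -0.24 to 0.46 for Gas5 and -0.53 to 0.31 for Snhg12. Genes called for number 3 minus number 1 were 180 with no minimum, 2641 with array weights and 414 to 2944 without 1 library. For number 2 minus number 1 they were 0 with no minimum, 75 with a minimum of 5 RPM, 46 under quantile normalization and 43 to 1743 without 1 library. For number 3 minus number 2 they were 568 with a pseudocount of 0.1, 42 with no minimum and 252 to 3122 without 1 library. With no minimum Gar1 and Nap1l1 lost their calls as well. Where libraries were left out, a lone library was assumed to vary like the others. The cause of these shifts was not tested.

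With the replicate block, which treats libraries of the same number as pairs, 0 genes were called between treatments, as without it, and 1012 genes had an unadjusted p under 0.05, against 231 without the block. The differences of the hosts are the same in that fit, and their adjusted p-values ran from 0.744 to 0.985. The block changed no call.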
